A study of Homo sapiens with 16 samples.

Results

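CYP1A1, CYP1B1 and AHRR are target genes of the aryl hydrocarbon receptor, and their signal was followed over the 16 Affymetrix arrays of AsPC-1 cells, a human pancreatic adenocarcinoma line. The genes were chosen by their measured difference between ICG-001 and DMSO, and they were followed through every probe set annotated to 1 of them alone: 5 of the 9554 probe sets, or 3 of the 5250 genes measured. CYP1A1 had 1 probe set, CYP1B1 had 3 and AHRR had 1. Their differences between drug and vehicle are therefore given as a description, with no test. The siRNA arrays were not part of those differences and are tested, although their results were also known when the genes were proposed.

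All cells were kept in RPMI with 10% FCS. In the drug experiment they received 10 µM ICG-001, a small molecule known to bind the coactivator CBP, or an equal volume of its vehicle DMSO, and were read after 6 h or 24 h on 3 arrays per group and time. In the other experiment they were transfected by lipofection with 20 nM of an siRNA against CTNNB1, which encodes β-catenin, or of a control siRNA, and RNA was taken at 48 h, on 2 arrays per group. Every group is thus the same cell line, and the drug was used at a single dose. Replicates are labelled biological, with nothing said on separate cultures, so p-values measure the spread between these arrays, which may be technical. CTNNB1 had no probe set of its own among those analysed here, so the knockdown was not checked on its target.

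The aryl hydrocarbon receptor is a transcription factor that waits in the cytoplasm bound to chaperones until a ligand, such as a dioxin, a polycyclic aromatic hydrocarbon or a tryptophan metabolite, sends it to the nucleus. There it pairs with ARNT and binds short DNA elements with the letters GCGTG, the xenobiotic response elements, near its target genes. CYP1A1 and CYP1B1 encode cytochrome P450 monooxygenases that oxidise aromatic compounds, among them many of the ligands, and CYP1B1 also oxidises oestradiol. AHRR encodes a repressor that competes with the receptor for ARNT and for the response element, which closes a negative feedback loop.

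CYP1A1 lies at chr15:74719542-74725528, CYP1B1 at chr2:38067509-38076151 and AHRR at chr5:321714-438285 in GRCh38.p14. RefSeq promoter windows of that build, each with 250 bases before the start and 50 after it, were given for CYP1A1 and at 2 starts of AHRR, and are shown as the sequence next to the starts of these genes, which need not hold the elements that act on them. Both strands were searched for GCGTG, and matches are in capitals.
CYP1A1, chr15:74725479-74725778, minus strand: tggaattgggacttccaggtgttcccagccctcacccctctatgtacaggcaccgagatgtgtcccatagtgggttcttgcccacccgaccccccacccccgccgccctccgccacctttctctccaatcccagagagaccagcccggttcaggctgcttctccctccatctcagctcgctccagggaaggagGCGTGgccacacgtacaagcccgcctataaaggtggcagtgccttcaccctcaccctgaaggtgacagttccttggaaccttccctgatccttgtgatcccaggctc
AHRR, first start, chr5:321464-321763, plus strand: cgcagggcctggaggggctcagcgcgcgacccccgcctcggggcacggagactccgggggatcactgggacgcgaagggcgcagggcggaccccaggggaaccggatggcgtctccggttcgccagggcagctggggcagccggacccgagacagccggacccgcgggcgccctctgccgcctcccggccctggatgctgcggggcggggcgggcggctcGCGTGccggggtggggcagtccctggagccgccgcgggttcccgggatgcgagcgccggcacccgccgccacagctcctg
AHRR, second start, chr5:322360-322659, plus strand: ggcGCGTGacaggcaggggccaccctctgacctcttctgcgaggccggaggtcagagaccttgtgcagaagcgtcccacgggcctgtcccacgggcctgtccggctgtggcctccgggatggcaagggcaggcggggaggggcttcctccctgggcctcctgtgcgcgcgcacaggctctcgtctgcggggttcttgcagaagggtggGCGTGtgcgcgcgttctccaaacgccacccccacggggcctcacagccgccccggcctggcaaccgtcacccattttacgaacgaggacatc
The CYP1A1 window held 1 match, from position -57 to -53 relative to the start. The first AHRR window held 1 match, from -30 to -26, which lay inside a match to the longer TNGCGTG from -32 to -26. The second AHRR window held 2 matches, from -247 to -243 and from -42 to -38. All lay on the strand of the gene. Of all 35116 windows of this length, 36.54% held GCGTG, 12.67% held it at least 2 times and 5.51% held TNGCGTG, so these letters are common and a match is a description of the sequence only.

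CYP1A1 had the largest difference of the 3 genes between drug and vehicle, and it was larger at 24 h than at 6 h. At 6 h its probe set 205749_at read 1669.6, 1607 and 1762 on the arrays with ICG-001, against 392, 359 and 401 on those with DMSO. At 24 h it read 3749, 3543 and 3633 with ICG-001, against 275, 249 and 237.5 with DMSO. The groups did not overlap at either time, and every array with ICG-001 lay far above every array with DMSO. The mean was 1679 ± 78.1 with ICG-001 at 6 h, against 384 ± 22.4 with DMSO, a ratio of 4.37 (SD, n = 3 each). At 24 h it was 3642 ± 103 with ICG-001, against 254 ± 19.4 with DMSO, a ratio of 14.4 (SD, n = 3 each). The vehicle itself differed between the times, with all 3 DMSO arrays lower at 24 h than any at 6 h. In bulk RNA, fewer cells of a kind and less RNA per cell cannot be told apart.

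CYP1B1 was higher with ICG-001 at both times, by a smaller ratio than CYP1A1. Its probe set 202435_s_at read 1133, 1099.98 and 1068 with ICG-001 at 6 h, against 539, 555 and 523 with DMSO. At 24 h it read 1196, 1409 and 1215 with ICG-001, against 529, 514 and 563 with DMSO. No array with ICG-001 fell into the range of DMSO, and the DMSO arrays of the 2 times overlapped each other. The ratio of means was 2.04 at 6 h and 2.38 at 24 h. The other probe sets of CYP1B1, 202436_s_at and 202437_s_at, were likewise higher on every array with ICG-001 than on any with DMSO of the same time. Probe set 202436_s_at averaged 1006 ± 66.2 with ICG-001 at 6 h, against 459 ± 13.8 with DMSO, and at 24 h 1136 ± 61.6 with ICG-001, against 469 ± 30.6 with DMSO (SD, n = 3 each). Probe set 202437_s_at averaged 954 ± 37.8 with ICG-001 at 6 h, against 449 ± 20.3 with DMSO, and at 24 h 1107 ± 37.8 with ICG-001, against 485 ± 39.7 with DMSO (SD, n = 3 each).

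AHRR was also higher with ICG-001, by a similar ratio at both times. Its probe set 229354_at read 2083, 2146 and 2160.1 with ICG-001 at 6 h, against 1077, 964 and 1064 with DMSO. At 24 h it read 3472, 3484 and 3503 with ICG-001, against 1551, 1455 and 1374 with DMSO. The groups did not overlap at either time, and the ratio of means was 2.06 at 6 h and 2.39 at 24 h. AHRR differed from the P450 genes in the vehicle: it was higher with DMSO at 24 h than at 6 h on all 3 arrays, and ICG-001 likewise read higher at the later time.

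**Figure D1:**
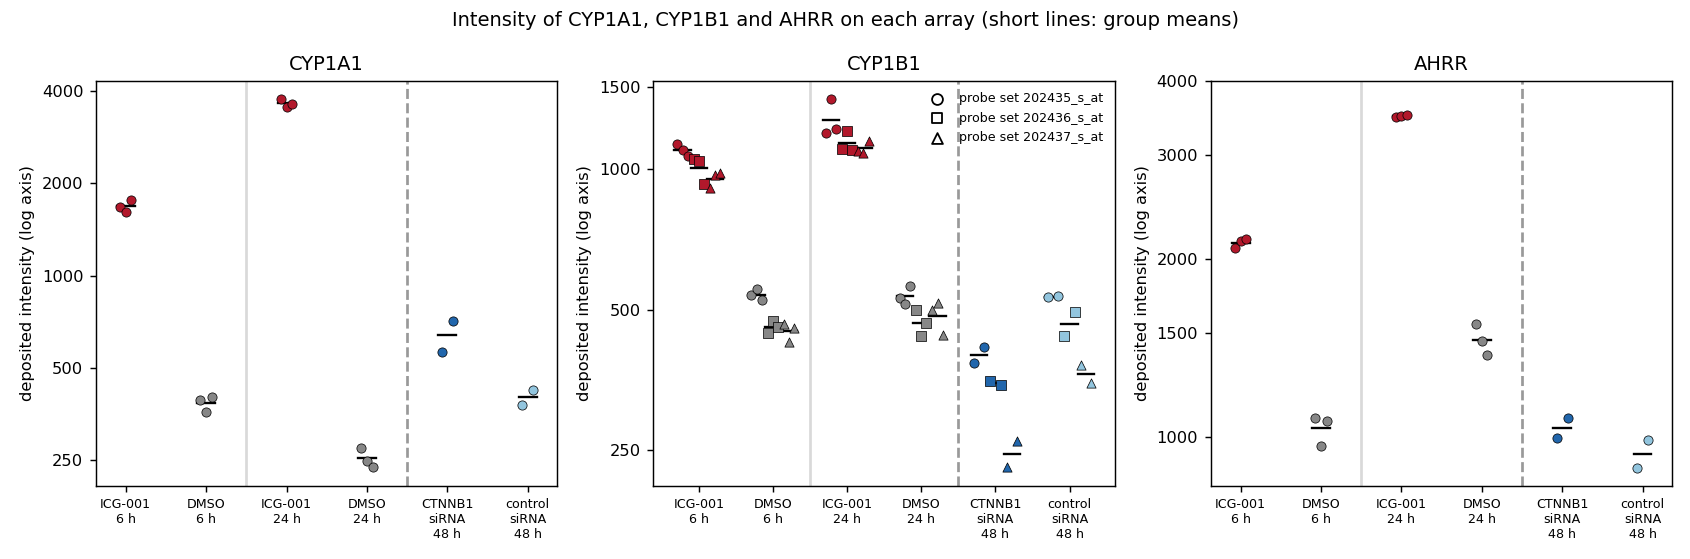
Deposited intensity (log axis, arbitrary units) of CYP1A1, CYP1B1 and AHRR on each of the 16 arrays, with group means as short lines and the 3 probe sets of CYP1B1 as different symbols. All arrays with ICG-001 sit above the DMSO arrays of the same time, and CYP1A1 shows the widest gap, with means of 3642 for ICG-001 and 254 for DMSO at 24 h.

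The fitted change depended on how the arrays were put on 1 scale. Changes were fitted on log2 of the intensity plus 16 after quantile normalization over the 16 arrays, and, as an alternative, on the deposited scaling. For CYP1A1 the log2 change with ICG-001 was 1.82 ± 0.09 (SE) at 6 h and 3.41 ± 0.09 at 24 h, against 2.08 and 3.76 on the deposited scaling. For CYP1B1 it was 0.74 ± 0.07 at 6 h and 0.91 ± 0.07 at 24 h, against 1.01 and 1.22 on the deposited scaling. AHRR moved by over 1.5 times: its log2 change was 0.60 ± 0.07 at 6 h and 0.67 ± 0.07 at 24 h, against 1.03 and 1.25 on the deposited scaling. The direction was the same under both.

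All 3 genes were among the 525 genes with the highest mean signal, and that group as a whole moved with the scaling. Quantile normalization gave it a median log2 change of -0.19 at 6 h and -0.13 at 24 h, whereas the deposited scaling gave 0.13 and 0.22. Array means of intensity were 163.7 to 178.9 with ICG-001, against 131.7 to 136.8 with DMSO. The array with ICG-001 at 24 h, replicate 2, had the highest median intensity of all, 28.6, and without it the log2 changes at 24 h were 3.41 for CYP1A1, 0.85 for CYP1B1 and 0.67 for AHRR. The part of the shift in the size of the 3 genes' changes was not tested.

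For scale, 13.8% of all 5250 genes passed an adjusted p under 0.05 at 6 h and 5.56% passed upward, and 20.5% passed at 24 h with 9.22% upward. Arrays of the groups did not overlap for 26.4% of all genes at 6 h and for 32.7% at 24 h. Nothing is read from these shares for the 3 genes, which were chosen by the same differences. By log2 change from the highest, CYP1A1 ranked 17th of all genes at 6 h and 2nd at 24 h. CYP1B1 ranked 125th at 6 h and 153rd at 24 h, and AHRR ranked 183rd at 6 h and 268th at 24 h, and no threshold on size separated members from other genes.

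The drug change of CYP1A1 was larger at 24 h than at 6 h, and those of CYP1B1 and AHRR lay closer together at both times. The log2 change at 24 h minus that at 6 h was 1.59 ± 0.12 (SE) for CYP1A1, 0.18 ± 0.09 for CYP1B1 and 0.07 ± 0.09 for AHRR, given as a description. On the deposited scaling these differences were 1.68, 0.21 and 0.22. Within DMSO, the log2 change at 24 h against 6 h was -0.68 ± 0.09 for CYP1A1, -0.06 ± 0.07 for CYP1B1 and 0.49 ± 0.07 for AHRR. Over all genes, 7.81% passed an adjusted p under 0.05 for the difference between the times.

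**Figure D2:**
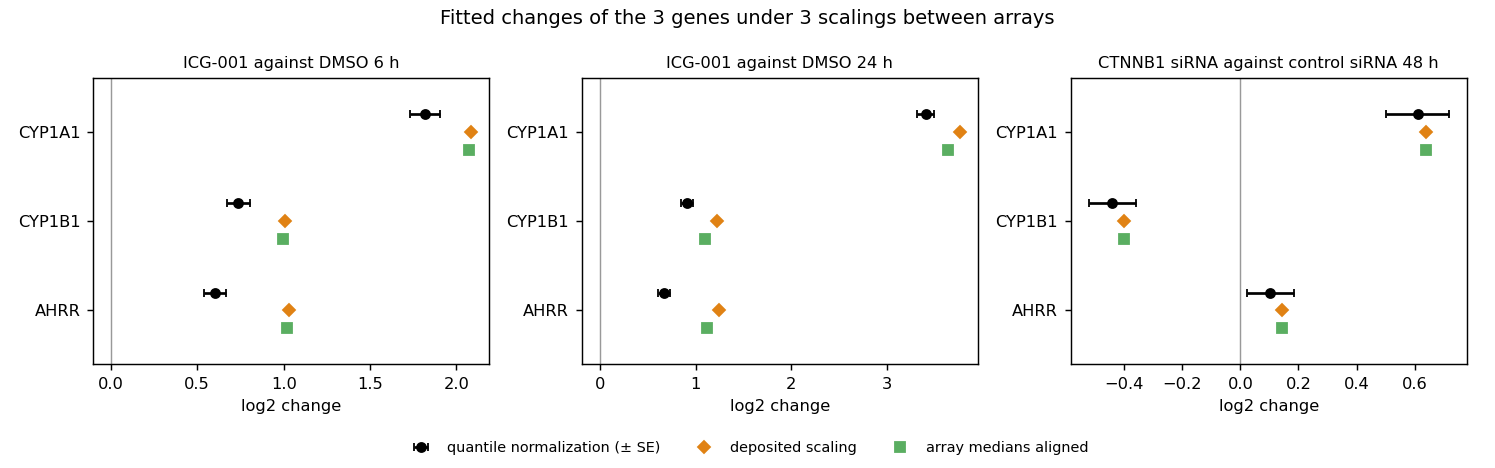
Fitted log2 change of CYP1A1, CYP1B1 and AHRR in the 3 comparisons, after quantile normalization (black, bars are ± SE), on the deposited scaling (orange) and with array medians aligned (green). The drug changes lie above 0 under every scaling and are smallest after quantile normalization, where AHRR reads 0.60 at 6 h against 1.03 on the deposited scaling.

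The arrays with siRNA gave a second look at the 3 genes, on arrays that took no part in the drug comparison, although the genes were proposed with these results known as well. CYP1A1 rose and CYP1B1 fell with CTNNB1 siRNA, and AHRR did not pass the test. CYP1A1 read 563 and 713 with CTNNB1 siRNA, against 379 and 424 with control siRNA. The log2 change was 0.61 ± 0.11 (SE; limma, adjusted p = 0.000707), higher on both arrays with CTNNB1 siRNA than on either control array. With the siRNA arrays fitted alone, without the spread of the drug arrays, it was 0.61 with a weaker limma adjusted p of 0.0195. It passed the test in each of the fits that left out 1 of the 4 arrays, with log2 changes of 0.44 to 0.78.

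All 3 probe sets of CYP1B1 fell. Probe set 202435_s_at read 384 and 417 with CTNNB1 siRNA, against 531 and 536 with control siRNA, and 202436_s_at read 352 and 344 with CTNNB1 siRNA, against 438 and 494 with control siRNA. Probe set 202437_s_at read 230.1 and 262 with CTNNB1 siRNA, against 382 and 349 with control siRNA. Both arrays with CTNNB1 siRNA lay below both control arrays for each probe set. The log2 change was -0.44 ± 0.08 for 202435_s_at, -0.44 ± 0.09 for 202436_s_at and -0.47 ± 0.09 for 202437_s_at (SE). Their adjusted p from a limma fit of all probe sets with a named gene was 0.000942, 0.00172 and 0.000972. With the siRNA arrays fitted alone, the gene-level change of CYP1B1 was -0.44 with a weaker limma adjusted p of 0.0201. Without 1 array at a time the change of CYP1B1 ranged over -0.49 to -0.39 and passed the test each time.

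AHRR read 996 and 1075 with CTNNB1 siRNA, against 886 and 987 with control siRNA. These arrays did not overlap either, yet the log2 change of 0.10 ± 0.08 (SE, limma, adjusted p = 0.505) missed the threshold, with a 95% interval of -0.07 to 0.27. It was -0.01 without control siRNA replicate 1, so 1 array sets its sign. Over all genes 12% passed in this comparison and 6.19% passed upward, and for 44.2% the arrays of the groups did not overlap. CYP1A1 and CYP1B1 therefore moved in opposite directions with CTNNB1 siRNA, whereas both were higher with ICG-001.

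The order of the 6 groups differed between the genes. CYP1A1 was highest with ICG-001 at 24 h, then with ICG-001 at 6 h, CTNNB1 siRNA, control siRNA, DMSO at 6 h and DMSO at 24 h, and control siRNA overlapped DMSO at 6 h. CYP1B1 was highest with ICG-001 at 24 h, then at 6 h, and lowest with CTNNB1 siRNA, and DMSO at 6 h, DMSO at 24 h and control siRNA in between overlapped their neighbours. AHRR was highest with ICG-001 at 24 h, then at 6 h, then with DMSO at 24 h. CTNNB1 siRNA, DMSO at 6 h and control siRNA followed, and DMSO at 6 h overlapped both siRNA groups. The siRNA groups did not overlap each other. Levels on siRNA arrays are set beside those on drug arrays on the deposited scaling. The median intensity was 12.7 to 13.05 on the siRNA arrays and 20.6 to 28.6 on the drug arrays, so that order across the experiments also carries their difference in scale. Single genes differed between the experiments in both directions. EPHX1 averaged 534 and 587 in the siRNA groups, against 215 to 253 in the drug groups. CYP3A4 averaged 17.4 and 17.6 in the siRNA groups, against 246 to 437 in the drug groups. The part of such differences in the order was not tested.

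Over the 12 arrays with ICG-001 or DMSO, the log2 values of CYP1A1 and CYP1B1 had a Pearson correlation of 0.97, whereas AHRR had 0.77 with each. These arrays fall into 4 groups and share their scaling, so the values describe the order of groups and carry no p. By rank of likeness to CYP1A1 among 3937 genes above the 25th percentile of mean signal, CYP1B1 stood 19th and AHRR 253rd.

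The 5 genes most like each member over these 12 arrays are given by the Pearson correlation alone. For CYP1A1 they were BEX2 with 0.993, the cholesterol exporter ABCG1 with 0.991, the epithelial tyrosine kinase PTK6 with 0.987, the growth factor BMP6 with 0.985 and ZFAND2A with 0.983. For CYP1B1 they were the adaptor LAT2 with 0.990, the cytokine IL1A with 0.989, the mitochondrial phosphoenolpyruvate carboxykinase PCK2 with 0.989, the kinesin KIF21B with 0.987 and the histone demethylase KDM7A with 0.987. For AHRR they were the cyclin-dependent kinase inhibitor CDKN2B with 0.983, GID4 with 0.979, the histone gene H2AC25 with 0.975, YPEL2 with 0.969 and JMY with 0.968. The siRNA arrays took no part in this choice, and with CTNNB1 siRNA 4 of the 15 genes rose, 2 fell and 9 did not pass, against 12% of all genes called.

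The genes nearest to a member did not share its change with CTNNB1 siRNA throughout. Next to CYP1A1, ABCG1 rose by 0.72 ± 0.09 (log2, SE; limma, adjusted p = 1.46e-05) and PTK6 by 0.48 ± 0.07 (adjusted p = 7.57e-05), and BEX2, BMP6 and ZFAND2A read -0.18, -0.11 and -0.11 without passing. Next to CYP1B1, KIF21B fell with a log2 change of -0.84 ± 0.18 (adjusted p = 0.00423) and IL1A rose by 0.57 ± 0.15 (adjusted p = 0.0182), and both calls rest on few arrays. IL1A had an adjusted p of 0.217 without control siRNA replicate 2, 0.0514 without CTNNB1 siRNA replicate 1 and 0.0944 without CTNNB1 siRNA replicate 2. KIF21B had 0.0688 without control siRNA replicate 2 and 0.0669 without CTNNB1 siRNA replicate 1. The size of the KIF21B change also moved with the amount added before log2, from -1.26 with 1 added to -0.42 with 64 added. With the siRNA arrays fitted alone, KIF21B read -0.58 and did not pass (limma, adjusted p = 0.361). Next to AHRR, CDKN2B rose by 0.61 ± 0.12 (adjusted p = 0.00169) and H2AC25 fell with a log2 change of -0.50 ± 0.08 (adjusted p = 0.000399).

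**Figure D3:**
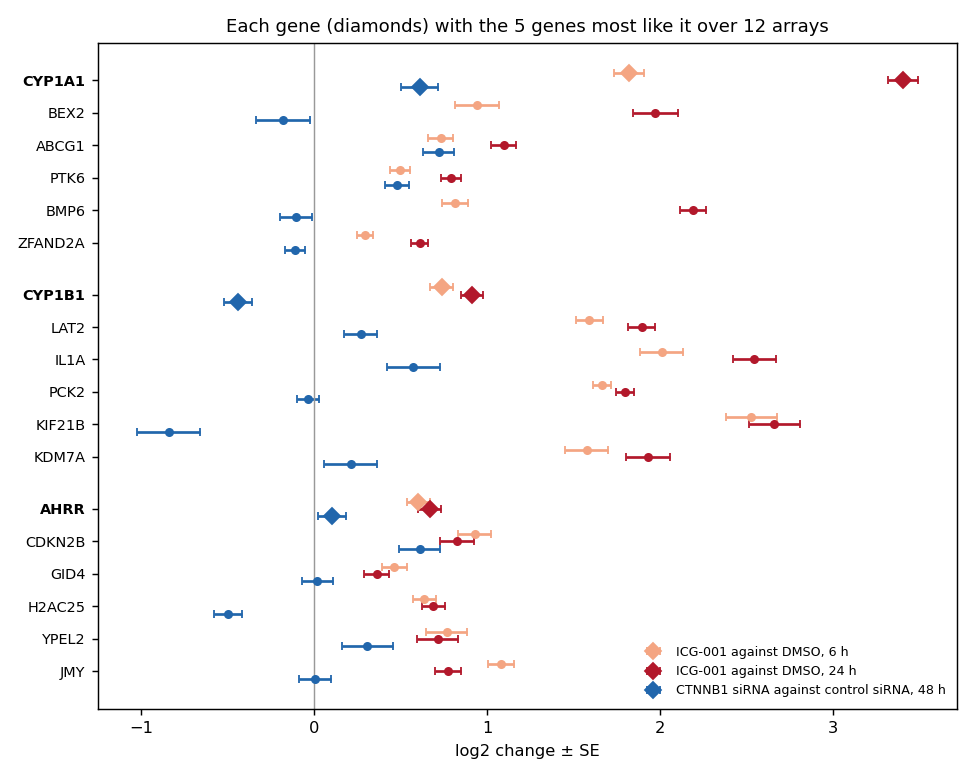
Log2 change ± SE (x axis) of CYP1A1, CYP1B1 and AHRR (diamonds) and of the 5 genes most like each of them over the 12 drug arrays (circles), in the 3 comparisons. With CTNNB1 siRNA, ABCG1 and PTK6 lie to the right of 0 with CYP1A1 at 0.61, and KIF21B lies to the left with CYP1B1 at -0.44 whereas IL1A lies to the right.

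A list of 43 further genes covered the receptor and its partners, xenobiotic enzymes, other described targets, and tryptophan metabolism. Of these, 8 were measured: the partner ARNT, the epoxide hydrolase EPHX1, SLC7A5, IGFBP1 and VAV3, and IDO2, KMO and WARS1. The last 3 were listed for tryptophan metabolism and not as targets of the receptor. AHR, TIPARP and NQO1 were not analysed here. Every probe set in the deposited values had a coefficient of variation of at least 0.4 over all arrays. Listed genes that varied less could therefore not be among the 8, and neither could genes without a probe set of their own. Which of these held for a missing gene was not tested. SLC7A5, IGFBP1 and WARS1 rose at 6 h and at 24 h in the limma fit, 0 fell and 5 did not pass, so that 37.5% of the measured genes were called at each time, against 13.8% of all genes at 6 h and 20.5% at 24 h. At an unadjusted p under 0.05 also 3 were higher and 0 lower at both times. The median log2 change of the 8 genes was 0.22 at 6 h and 0.01 at 24 h, against -0.02 over all genes at both times. With only 8 genes measured, these shares describe the measured genes and not the pathway. The list was also written with earlier results of these data known, so nothing is read from its share against that of all genes.

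SLC7A5, a transporter of large neutral amino acids including tryptophan, read 7723, 7692 and 7622 with ICG-001 at 6 h, against 3319.9, 3291 and 3061 with DMSO. At 24 h it read 6609, 6679 and 6494 with ICG-001, against 1623, 1774 and 2019.9 with DMSO. Its groups did not overlap, and DMSO was lower at 24 h than at 6 h. The log2 change was 0.63 ± 0.06 at 6 h (limma, adjusted p = 4.94e-08) and 1.26 ± 0.06 at 24 h (adjusted p = 1.98e-12), against 1.25 and 1.87 on the deposited scaling.

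IGFBP1, a secreted binding protein for insulin-like growth factors, averaged 12638 ± 213 with ICG-001 at 6 h, against 5537 ± 122 with DMSO (SD, n = 3 each). At 24 h it averaged 12294 ± 228 with ICG-001, against 6724 ± 437 with DMSO (SD, n = 3 each). The log2 change was 0.98 ± 0.11 at 6 h (limma, adjusted p = 8.93e-07) and 0.61 ± 0.11 at 24 h (adjusted p = 0.000191), against 1.19 and 0.87 on the deposited scaling. WARS1, the cytoplasmic tryptophanyl-tRNA synthetase, averaged 2345 ± 28.5 with ICG-001 at 6 h, against 1229 ± 45.6 with DMSO, and at 24 h 3176 ± 138 with ICG-001, against 1214 ± 96.0 with DMSO (SD, n = 3 each). Its log2 change was 0.50 ± 0.07 at 6 h (adjusted p = 1.12e-05) and 0.87 ± 0.07 at 24 h (adjusted p = 3.62e-09), against 0.92 and 1.38 on the deposited scaling.

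With CTNNB1 siRNA, 0 of the 8 genes rose and WARS1 fell, at a log2 change of -0.26 ± 0.08 (limma, adjusted p = 0.0418), and this call was lost on the deposited scaling, where the change was -0.21 with an adjusted p of 0.101. This is 12.5% of the measured genes, near the 12% of all genes. At an unadjusted p under 0.05, 0 were higher and 2 lower. The WARS1 call was also lost without control siRNA replicate 2 (adjusted p = 0.2) and without CTNNB1 siRNA replicate 1 (adjusted p = 0.262). Without control siRNA replicate 2, IGFBP1 passed instead, at -0.55 (adjusted p = 0.0162). The receptor's partner ARNT was dim, with group means of 6.6 to 24.0, and passed in no comparison. VAV3 and IDO2 were dim as well, with group means of 3.45 to 6.99 and of 3.43 to 23.0. A missing call for these genes therefore says little, and their values enter the median of the 8 genes.

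**Figure D4:**
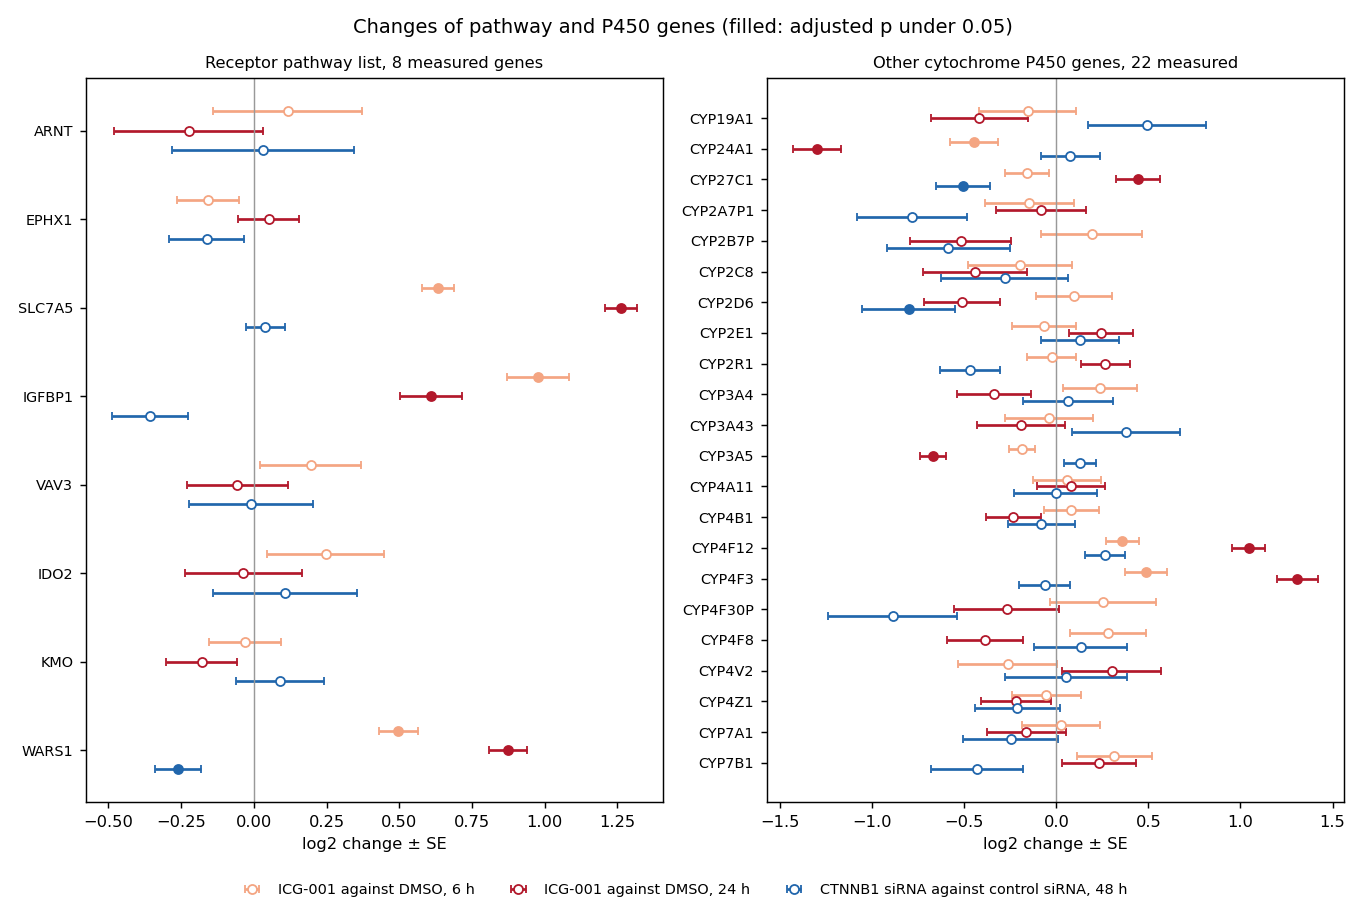
Log2 change ± SE (x axis) in the 3 comparisons of the 8 measured genes of the receptor pathway list (left) and of the 22 other measured cytochrome P450 genes (right). Filled points pass an adjusted p under 0.05. SLC7A5, IGFBP1 and WARS1 lie to the right at both times of ICG-001, and CYP24A1 lies to the left at -1.30 at 24 h.

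The other cytochrome P450 genes passed the test at a share near that of all genes. Of 22 measured, 2 rose and 1 fell at 6 h (13.6%) and 3 rose and 2 fell at 24 h (22.7%), against 13.8% and 20.5% of all genes. Their median log2 change was 0.00 at 6 h and -0.20 at 24 h, against -0.02 over all genes at both times. CYP4F3, which inactivates leukotriene B4 by omega-hydroxylation, averaged 503 ± 20.8 with ICG-001 at 6 h, against 323 ± 28.8 with DMSO, and at 24 h 1137 ± 44.7 with ICG-001, against 365 ± 50.4 with DMSO (SD, n = 3 each). Its log2 change was 0.49 ± 0.11 at 6 h (limma, adjusted p = 0.00404) and 1.31 ± 0.11 at 24 h (adjusted p = 2.15e-08). CYP4F12, a close paralog, rose by 0.36 ± 0.09 at 6 h (adjusted p = 0.00805) and by 1.05 ± 0.09 at 24 h (adjusted p = 2.21e-08). Probe sets of such near-identical genes can cross-hybridise, so these are uncertain as separate changes.

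CYP24A1, the enzyme that degrades active vitamin D, averaged 59.6 ± 2.34 with ICG-001 at 6 h, against 85.1 ± 4.72 with DMSO, and at 24 h 34.1 ± 4.87 with ICG-001, against 103 ± 15.0 with DMSO (SD, n = 3 each). It fell at 6 h with a log2 change of -0.45 ± 0.13 (limma, adjusted p = 0.0251), and at 24 h with -1.30 ± 0.13 (adjusted p = 2.22e-07). The call at 6 h was lost with medians aligned (adjusted p = 0.0542) and without any 1 of 4 arrays, namely ICG-001 6 h replicates 2 and 3 (0.0764 and 0.0966) and DMSO 6 h replicates 1 and 2 (0.0865 and 0.0982). CYP3A5, a drug-metabolising enzyme, fell at 24 h after quantile normalization (-0.67 ± 0.07, adjusted p = 3.58e-07) but read -0.12 with an adjusted p of 0.283 on the deposited scaling, so this call rests on the scaling. CYP27C1, a retinoid desaturase, rose at 24 h by 0.44 ± 0.12 (adjusted p = 0.0103), and had an adjusted p of 0.061 without DMSO 24 h replicate 2. With CTNNB1 siRNA 0 of the 22 rose and 2 fell in the limma fit, with 1 higher and 5 lower at an unadjusted p under 0.05. The called share was 9.09%, against 12% of all genes. CYP27C1 fell with -0.51 ± 0.15 (adjusted p = 0.029), a call lost on the deposited scaling (adjusted p = 0.138) and in 3 of the 4 fits that left out 1 array, without control siRNA replicate 1 (0.0603) or 2 (0.092) or CTNNB1 siRNA replicate 1 (0.179). CYP2D6, named after its values were seen, had -0.80 (adjusted p = 0.0464), a call lost without any 1 of the 4 arrays (0.0694 to 0.189), and lay near background at 2.79 and 1.00 with CTNNB1 siRNA, against 12.5 and 9.45 with control siRNA.

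Of 10 ductal epithelial markers, 5 were measured (KRT7, KRT19, CDH1, MUC1 and CFTR), and their summed intensity was 2458 to 2593 with ICG-001 at 24 h, against 2831 to 3353 with DMSO. On the siRNA arrays that sum was far lower, at 406 to 453 with control siRNA and 523 to 566 with CTNNB1 siRNA. The 5 did not move together. At 24 h KRT7 fell with ICG-001 at a log2 change of -1.35 (limma, adjusted p = 6.07e-10) and MUC1 at -0.28 (adjusted p = 0.0154, but a log2 change of 0.13 with an adjusted p of 0.28 on the deposited scaling), whereas KRT19, CDH1 and CFTR read -0.27, -0.04 and 0.24 without passing. At 6 h only KRT7 fell, at -0.59 (adjusted p = 6.27e-05, but 0.164 on the deposited scaling). With CTNNB1 siRNA KRT7 rose by 1.06 (adjusted p = 1.91e-06) and CDH1 by 0.42 (adjusted p = 0.0487, but 0.215 on the deposited scaling), whereas KRT19, MUC1 and CFTR read -0.12, -0.21 and 0.08 without passing. The hepatocyte markers ALB and APOB, 2 of 6 listed, summed to 115.5 to 157 with ICG-001 at 24 h, against 93.9 to 107 with DMSO, and ALB rose by 0.50 (limma, adjusted p = 0.0173) whereas APOB read -0.07 (adjusted p = 0.895). Leukocyte markers were represented by PTPRC alone, at 4.07 to 31.7 over all arrays, fibroblast markers by 3 of 6 and acinar markers by 0 of 5. The part of these shifts in the results was not tested.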

How the data were processed

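The starting values were linear intensities of probe sets, as deposited by the authors. Total RNA was extracted and biotin-labelled per the labels' protocols. For the authors' summarisation of probes and scaling of arrays, the method is not given in the sources used here. Every probe set had a coefficient of variation of at least 0.4 over the 16 arrays, so the table is a selection and its percentages refer to it. Probe sets with 1 listed gene were kept (6442 of 9554), symbols being updated through gene identifiers, and the probe set with the highest mean stood for each of 5250 genes. After 16 was added and log2 taken, array medians differed by 0.636, above a limit of 0.5, so the arrays were quantile normalized. limma 3.58.1 (R 4.3.3) fitted 1 linear model with 6 groups over the 16 arrays on these log2 values, computed from the deposited intensities, with Benjamini-Hochberg adjustment over all genes and a threshold of 0.05. The comparison of 2 with 2 siRNA arrays borrows the spread of the other groups. The model code was tested on simulated data.

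The genes, the pathway and marker lists and the rules were chosen with earlier results of these data known. The text names the 3 genes, pathway genes called in a main comparison, the 5 other P450 genes with the largest called drug change, and the 5 genes most correlated with each member. Alternatives were the deposited scaling, alignment of medians, 1 or 64 added before log2, a filter on dim genes, every probe set tested on its own, each experiment fitted alone, replicate number as a block, and each array left out.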

Additional observations from a re-analysis of the deposited data

Results flagged for a closer look

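Among the pathway and other P450 genes named above for a call with ICG-001, 7 had a drug change that differed between 24 h and 6 h. The fitted difference of the changes is given as log2, 24 h minus 6 h, with limma's adjusted p. These genes were picked by differences on the same arrays, so their p-values are not independent of that choice. Over all genes, 7.81% passed for this difference. SLC7A5 had 0.63 (adjusted p = 2.34e-05) and WARS1 had 0.38 (adjusted p = 0.0133), against 0.34 with an adjusted p of 0.0536 with array medians aligned. IGFBP1 did not pass, at -0.37 (adjusted p = 0.205), but did on the deposited scaling, at -0.32 (adjusted p = 0.031), and with medians aligned, at -0.43 (adjusted p = 0.0189). CYP4F3 had 0.82 (adjusted p = 0.00183) and CYP4F12 had 0.69 (adjusted p = 0.00124). CYP24A1 had -0.85 (adjusted p = 0.00499). CYP3A5 had -0.48 (adjusted p = 0.00324), against -0.31 with an adjusted p of 0.06 on the deposited scaling. CYP27C1 had 0.60 (adjusted p = 0.0327), and this call was lost under 11 of 20 alternatives.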

How the results depend on the processing

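The size of the drug changes moved with the scaling and their direction did not. On the deposited scaling the log2 change at 6 h and 24 h was 2.08 and 3.76 for CYP1A1, 1.01 and 1.22 for CYP1B1, and 1.03 and 1.25 for AHRR. With medians aligned it was 2.07 and 3.64 for CYP1A1, 1.00 and 1.10 for CYP1B1, and 1.02 and 1.12 for AHRR. With 64 added before log2, CYP1A1 read 3.18 at 24 h. With CTNNB1 siRNA, CYP1A1 and CYP1B1 kept direction and call in every alternative run, and AHRR ranged from -0.0149 to 0.222 with 1 array left out, the lowest value, of opposite sign, coming without control siRNA replicate 1 (adjusted p = 0.953). The count of called pathway genes with CTNNB1 siRNA was 0 on the deposited scaling, 0 with medians aligned and 0 with the siRNA arrays fitted alone, and 0 to 1 with 1 array left out (0 without CTNNB1 siRNA replicate 1). On the deposited scaling 406 genes rose and 244 fell at 6 h (against 292 and 432), and 738 rose and 385 fell at 24 h (against 484 and 592). Same-numbered arrays did not deviate together (correlations of -0.04 to 0.09), and with a replicate block the calls numbered 734 at 6 h (against 724), 1093 at 24 h (against 1076) and 656 with siRNA (against 631). The block gave 2 called pathway genes with siRNA, adding IGFBP1 at -0.36 (adjusted p = 0.0434). CDKN2B missed the threshold with the siRNA arrays alone (adjusted p = 0.0598), as did KIF21B (0.361), and LAT2 passed under 4 alternatives. The number of arrays limits every comparison, 2 against 2 most of all.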
